A study of Sus scrofa with 36 samples.

Results

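The swine leukocyte antigens (SLA) are the major histocompatibility proteins of the pig. They were examined here together with the genes that load, trim and transport their peptides and the factors that switch them on, in adrenal glands of 36 castrated male growing pigs. The group was defined by 32 listed gene names. No measured value entered that rule, but the list was drawn up with earlier results of these data known. Of the 32 genes, 29 had at least 1 array feature, through 103 of the 60305 probes of the array. SLA-2, SLA-DOA and CIITA had none under their own name, and the array design carries 39175 gene names in all. A further 6 probes were named for members only by accession, 3 of them for SLA-DOA. They were counted as members only in 1 alternative setting. A total of 102 probes were taken by gene name, 7 of them listed as SLA-DQA, a synonym of SLA-DQA1, and 1 probe of ERAP2 was taken by its description.

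The pigs were Creole, Large White or a Large White x Creole cross, 12 of each breed, and each breed gave 6 pigs slaughtered at thermoneutrality (TN) and 6 slaughtered after about 5 days of heat (HS). The labels give 24 °C for TN and 30 °C for HS, whereas the growth protocol gives 32 °C for the heat. All TN pigs were slaughtered before all HS pigs, so slaughter day and temperature cannot be told apart. The methods state that the 12 pigs of a breed came from 3 litters, and littermates share SLA haplotypes. The p-values below measure the spread between these pigs and treat littermates as independent. Each pig was one 1-colour array, and a level below is the log2 of the quantile-normalised median pixel intensity of a probe. The 36 arrays correlated at 0.982 to 0.996 with each other, the lowest mean correlation with the others being 0.987 (Creole HS replicate 2), and each array had 42436 to 48060 probes well above background. In all, 45943 probes were tested, among them 100 of the 103 member probes, covering 28 genes. The other 3 were the only ERAP2 probe, 1 of 4 PSMB8 probes and 1 of 2 SLA-6 probes, which were well above background on 1, 3 and 2 of the 36 arrays. No member probe was saturated. The tissue label was borne out by the markers of the gland, the mean level per pig being 14.06 to 14.66 for 28 adrenal cortex probes and 15.08 to 16.19 for 22 chromaffin cell probes, although CYP11B1, TH and DBH had no tested probe.

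Class I molecules are carried by nearly all nucleated cells. A polymorphic heavy chain (SLA-1, SLA-2 and SLA-3) pairs with B2M and displays peptides that the immunoproteasome (PSMB8, PSMB9, PSMB10) cuts, TAP1 and TAP2 pump into the endoplasmic reticulum, ERAP1 and ERAP2 trim and TAPBP helps to load. Class II molecules (SLA-DR and SLA-DQ) are typical of macrophages, dendritic cells and B cells. They travel with the invariant chain CD74, which CTSS degrades, and exchange their peptides with the help of SLA-DM, which SLA-DO holds back. NLRC5 is the main activator of class I genes, CIITA that of class II genes, and RFX5, RFXAP and RFXANK form the complex on the promoters of both. In the pig RefSeq annotation (Sscrofa11.1), 20 of the 32 genes lie on chromosome 7, of which 19 lie between positions 22824137 and 25182665 and TAPBP lies further along at 29663491 to 29673453.

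The classical SLA genes are among the most variable genes of the genome, so a 60-base probe designed on one haplotype may hybridise less well with another. No SLA genotype was used here, and for every result on a polymorphic member a different RNA level and a different match to the probe cannot be told apart. In a piece of tissue, fewer cells of a type and less RNA per cell cannot be told apart either. Probes of 1 gene were therefore set side by side by their differences between breeds. Of 24 SLA class I heavy-chain probes, 5 list more than 1 RefSeq gene in the array design, and 1 of the SLA-1 probes (CUST_238) carries the description of another gene, PDZ and LIM domain 7, although it matched the SLA-1 probe CUST_30 at 57 of 58 aligned bases. Names and directions among SLA-1, SLA-2 and SLA-3 are uncertain to that extent.

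The probe sequences show how closely some members resemble each other. The 2 SLA-DQA1 probes below align over 59 bases and differ at 5 of them, shown in capitals. They are printed because their levels ran differently across the pigs.
SLA-DQA1 A_72_P743257: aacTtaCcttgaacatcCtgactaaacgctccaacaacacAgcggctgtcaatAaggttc
SLA-DQA1 A_72_P763148: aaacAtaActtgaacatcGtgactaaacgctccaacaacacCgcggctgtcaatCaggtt

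A second SLA-DQA1 pair aligns over 56 bases and differs at 3 of them. Shown is the stretch from the first to the last differing base, with those bases in capitals.
SLA-DQA1 A_72_P244477: CtaatatgtacatggaaAcaataaatcA
SLA-DQA1 A_72_P765361: TtaatatgtacatggaaCcaataaatcC

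An SLA-1 and an SLA-3 probe align over 59 bases and differ at 4, in capitals. They are shown because only the one named SLA-3 passed in Large White minus Creole, although the array design lists both for SLA-2 and further class I loci and neither is specific to its named gene.
SLA-1 A_72_P440391: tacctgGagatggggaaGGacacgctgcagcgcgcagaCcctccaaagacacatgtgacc
SLA-3 A_72_P440386: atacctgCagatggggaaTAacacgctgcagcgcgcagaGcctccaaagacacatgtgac

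The probes with the clearest breed differences follow, the first 2 whole and the others by their first 30 bases. No base is in capitals, since no second probe is compared.
SLA-3 A_72_P517623: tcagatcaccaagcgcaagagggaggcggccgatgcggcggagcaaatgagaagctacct
SLA-DQA1 A_72_P746609: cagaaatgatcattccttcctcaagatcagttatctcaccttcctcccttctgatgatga
SLA-3 A_72_P625308: tccttatgctaagttcattgccctgactgg
SLA-DQB1 A_72_P631166: tgtgttgactaccattacttcttcgtttgt
TAP2 A_72_P390538: catccccattttatggatgagaaaactgaa
SLA-6 A_72_P237292: tgatatagccaaagaacattcgaaggcttc

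The first question was whether the heat changed antigen presentation genes in the adrenal gland. No member probe passed a false discovery rate (FDR) of 0.05 in HS minus TN, fitted with breed as a covariate. Of all tested probes 0.886% passed (0.39% higher and 0.496% lower), which is 407 probes. Leaving out samples moved this to 33 without slide 2, 34 without slide 3, 221 without cross TN replicate 3 and 812 without Large White HS replicate 5. At an unadjusted p-value under 0.05 there were 2 member probes, which is 2% of those tested against 13.4% of all probes. The median difference over the 100 probes was 0.00 on the log2 scale, with 50 probes above 0, and the differences ran from -0.28 to 0.22. The lowest FDR adjusted p-value was 0.189.

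The 2 probes under 0.05 before adjustment belong to RFXAP, a subunit of the RFX complex, and TAP1, a subunit of the peptide pump. The RFXAP probe O9697 was at 10.93 (lowest), 11.11 (median) and 11.41 (highest) in the 18 TN pigs and at 10.89, 11.28 and 11.39 in the 18 HS pigs, a difference of 0.11 (adjusted p-value 0.189). The other RFXAP probe, A_72_P339768, differed by 0.08 (adjusted p-value 0.434). The TAP1 probe A_72_P172206 was at 6.08, 6.59 and 6.84 in TN and at 6.20, 6.75 and 7.40 in HS, a difference of 0.19 (adjusted p-value 0.345). This is the dimmest of 3 TAP1 probes, and the brighter O4777 and A_72_P223837 differed by 0.12 (adjusted p-value 0.743) and 0.04 (0.916). In O9697 and A_72_P172206 the temperature groups overlapped over most of their range.

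The brightest probes of the best-known members lay at nearly the same level in both temperature groups. SLA-1, through probe CUST_30, was at 17.66, 18.13 and 18.49 in TN and 17.72, 18.12 and 18.42 in HS (adjusted p-value 0.995). B2M, the invariant light chain of class I, was at 16.60, 17.14 and 17.46 in TN and 16.82, 17.08 and 17.65 in HS (probe CUST_232, adjusted p-value 0.952). SLA-DRA, the nearly monomorphic class II alpha chain, was at 14.11, 14.69 and 15.40 in TN and 14.19, 14.79 and 15.27 in HS (probe A_72_P640825, adjusted p-value 0.971). CD74 was at 11.15, 11.91 and 12.27 in TN and 11.49, 11.77 and 12.48 in HS (probe A_72_P395573, adjusted p-value 0.965). NLRC5, the class I activator, was at 7.05, 7.34 and 7.55 in TN and 6.87, 7.27 and 7.51 in HS (probe A_72_P527747, adjusted p-value 0.517). The ranges of TN and HS overlapped for each of these genes.

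By role, the HS minus TN differences ran from -0.28 to 0.16 over 15 probes of the classical class I chains and from -0.16 to 0.18 over 11 probes of the non-classical chains and CD1D. They ran from -0.10 to 0.11 over 24 classical class II probes and from -0.10 to 0.22 over 13 probes of class II loading. For the supply and assembly of class I peptides, 28 probes ran from -0.07 to 0.19, and for transcriptional control 9 probes ran from -0.09 to 0.11. For 91 of the 100 probes the 95% interval of the difference lay within 0.5 of 0 on the log2 scale, and the median standard error was 0.0986. The other 9 were the 3 SLA-DOB probes, 1 each of SLA-1 and SLA-5, and 2 each of SLA-3 and SLA-DQA1, whose intervals are wider. The widest bounds were -0.83 (SLA-DQA1, A_72_P765361) and 1.17 (SLA-5, A_72_P414498).

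**Figure D1:**
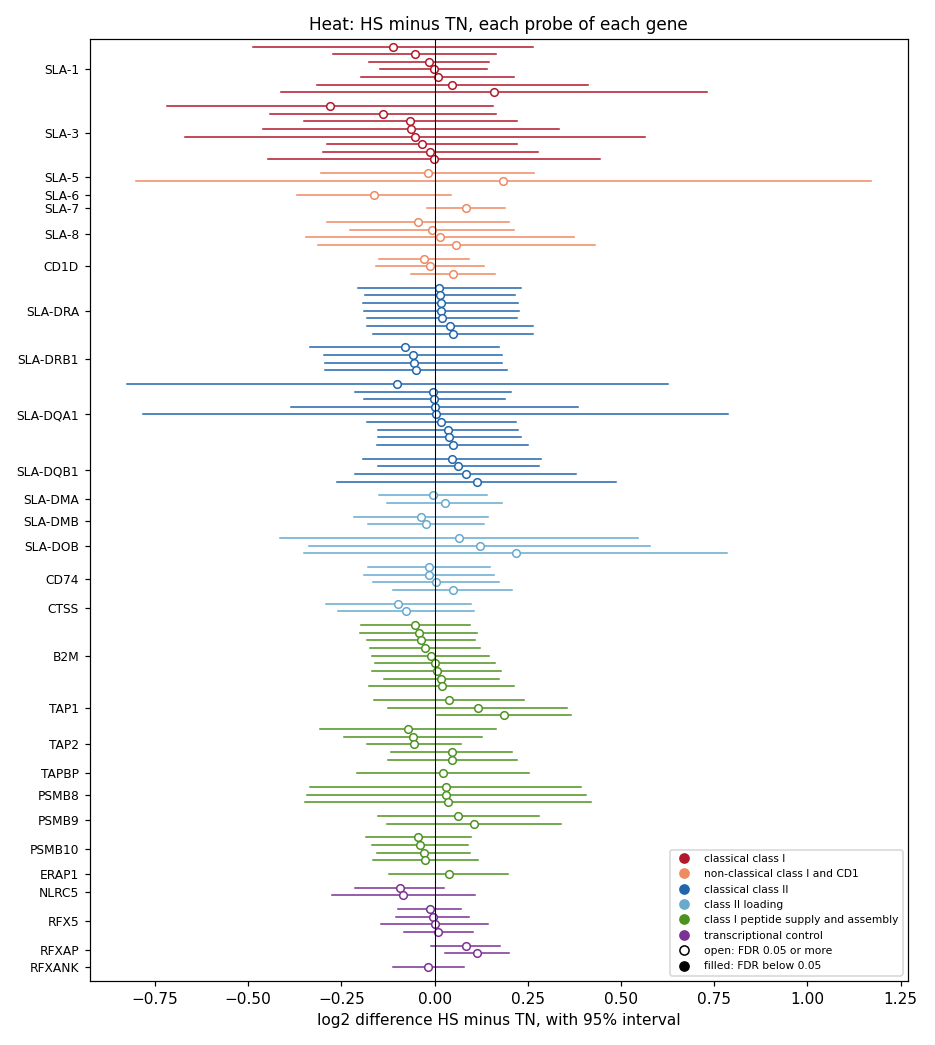
HS minus TN on the log2 scale (x axis) for each of the 100 tested member probes, grouped by gene on the y axis and coloured by role, with 95% intervals as bars. All points are open, since none reached an FDR of 0.05, and they lie between -0.28 and 0.22, with the widest interval for 1 SLA-5 probe.

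The second question was whether the temperature effect differed between breeds. Within Creole, Large White and cross pigs, 0 member probes passed in HS minus TN, against 0%, 0.0109% and 0% of all probes. At an unadjusted p-value under 0.05 there were 1, 0 and 1 of the 100 member probes, against 4.8%, 6.27% and 12.2% of all probes. Of the 100 differences, 66 were above 0 in Creole (median 0.07), 21 in Large White (median -0.08) and 57 in the cross (median 0.03). The medians of all probes were -0.002, -0.002 and 0.002, and probes of 1 gene are not independent. The interaction of breed and temperature passed for 0 member probes and 0% of all probes, and its unadjusted p-value was under 0.05 for 0 member probes and 4.21% of all probes (limma).

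The breeds themselves differed in a few members. In the test of the 3 breeds, 8 of 100 member probes from 5 genes passed, against 10.4% of all probes. In Large White minus Creole, 9 member probes from 5 genes passed, 5 higher and 4 lower in Large White, against 11.3% of all probes (5.89% higher and 5.38% lower). The share of member probes was close to that of all probes, and the counts are no result about antigen presentation as a group. SLA-3 and single TAP2 and PSMB10 probes were brighter in Large White, and 3 SLA-DQA1 probes and 1 SLA-DQB1 probe were brighter in Creole.

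SLA-3 encodes a classical class I heavy chain (chromosome 7, 22938211 to 22942735). Its probe A_72_P517623 was at 10.29, 11.31 and 13.15 (lowest, median and highest) in the 12 Creole pigs, at 12.60, 13.07 and 13.67 in Large White and at 11.97, 12.78 and 13.54 in the cross. Of the 12 Creole pigs, 9 lay below the lowest Large White pig. The difference of Large White from Creole was 1.38 ± 0.26 (SE) on the log2 scale, or 2.59-fold (95% interval 0.84 to 1.91 in log2, adjusted p-value 0.000466).

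In the SLA-3 probe A_72_P625308 the Large White pigs lay closer together. Creole pigs were at 12.83, 13.43 and 14.88, Large White at 14.64, 14.90 and 15.11, and the cross at 14.10, 14.67 and 15.34. In this probe 11 of the 12 Creole pigs lay below the lowest Large White pig, the exception being Creole HS replicate 1. Large White was 2.27-fold higher (log2 difference 1.18 ± 0.18, 95% interval 0.81 to 1.55, adjusted p-value 3.05e-05). The SD over pigs was 0.72 in Creole pigs, 0.15 in Large White pigs and 0.32 in cross pigs. The SLA-3 probe A_72_P440386 was 1.46-fold higher in Large White (log2 difference 0.55 ± 0.17, adjusted p-value 0.0337), and this call was lost in 13 of 53 alternative settings. The array design lists this probe for SLA-2 and further class I loci as well as SLA-3, so the call is not specific to SLA-3.

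All 8 SLA-3 probes had a higher mean in Large White, but 5 did not pass. Their differences were 0.71 (A_72_P515992, adjusted p-value 0.242), 0.54 (A_72_P609764, 0.214), 0.53 (A_72_P682906, 0.162), 0.21 (A_72_P649741, 0.452) and 0.09 (A_72_P683231, 0.815). Probe A_72_P682906 shares 42 bases with A_72_P625308 without a mismatch. The SLA-1 probe A_72_P440391, which differs from the SLA-3 probe A_72_P440386 at 4 bases, stood at -0.09 (adjusted p-value 0.863). The 7 SLA-1 probes ran from -0.09 to 0.16 in Large White minus Creole, and 0 of them passed.

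SLA-DQA1 encodes the alpha chain of the class II molecule SLA-DQ (chromosome 7, 24953472 to 24959313). Its probe A_72_P746609 was at 11.54, 11.78 and 12.35 in Creole pigs, 11.07, 11.39 and 11.67 in Large White pigs and 10.76, 11.42 and 11.91 in cross pigs, and 8 of 12 Creole pigs lay above the highest Large White pig. Large White was 1.40-fold lower (log2 difference -0.48 ± 0.12, 95% interval -0.72 to -0.25, adjusted p-value 0.00437). Probes A_72_P750437 (-0.47, adjusted p-value 0.00836) and A_72_P712598 (-0.39, adjusted p-value 0.0303) were lower as well. They share 30 and 38 aligned bases with A_72_P746609, the latter with 1 mismatch, so the 3 probes read overlapping sequence and are not separate evidence. The call for A_72_P712598 was lost in 10 of 53 alternative settings.

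The other 6 SLA-DQA1 probes did not pass, and they disagreed in direction. The differences were -0.48 (A_72_P743257, adjusted p-value 0.600), -0.19 (A_72_P721473, 0.331), -0.14 (A_72_P244477, 0.570), -0.03 (A_72_P720353, 0.924), 0.52 (A_72_P763148, 0.151) and 1.21 (A_72_P765361, 0.0687). Within each of the near-identical pairs printed above, 1 probe was therefore lower and the other higher in Large White on average. None of these probes passed, either here or in the test against the other probes of the gene given further on.

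SLA-DQB1 encodes the beta chain that pairs with SLA-DQA1 (chromosome 7, 24969034 to 24977238). Its probe A_72_P631166 was at 8.27, 9.33 and 10.09 in Creole pigs, 7.78, 8.49 and 8.97 in Large White pigs and 7.60, 8.41 and 8.96 in cross pigs, and 9 of 12 Creole pigs lay above the highest Large White pig. Large White was 1.66-fold lower (log2 difference -0.73 ± 0.18, 95% interval -1.09 to -0.37, adjusted p-value 0.00548). The other 3 SLA-DQB1 probes ran from -0.36 to 0.09 and did not pass. SLA-DRA and SLA-DRB1, the chains of the other classical class II molecule, ran from -0.18 to -0.00 over 7 probes and from -0.02 to 0.05 over 4 probes, again with none past the threshold.

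Among the supply genes, the TAP2 probe A_72_P390538 was at 7.48, 8.12 and 8.32 in Creole pigs, 8.07, 8.45 and 8.91 in Large White pigs and 7.93, 8.28 and 8.60 in cross pigs (TAP2: chromosome 7, 25045085 to 25056915). Large White was 1.41-fold higher (log2 difference 0.49 ± 0.11, adjusted p-value 0.00255). The other 4 TAP2 probes ran from -0.03 to 0.22 and did not pass. The PSMB10 probe A_72_P003971 was at 10.80, 11.13 and 11.50 in Creole pigs, 11.10, 11.34 and 11.78 in Large White pigs and 10.86, 11.15 and 11.33 in cross pigs. PSMB10 is a catalytic subunit of the immunoproteasome on chromosome 6 (28544910 to 28547609). Large White was 1.17-fold higher (log2 difference 0.23 ± 0.08, adjusted p-value 0.0454), and all 4 PSMB10 probes were higher, by 0.16 to 0.23, but only this one passed and its call was lost in 20 of 53 alternative settings.

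Members without a call between Large White and Creole included B2M (9 probes, -0.03 to 0.12), TAP1 (3 probes, -0.07 to -0.02), PSMB9 (2 probes, 0.01 to 0.04), PSMB8 (3 probes, -0.24 to -0.21), CD74 (4 probes, -0.15 to -0.06) and CTSS (2 probes, 0.13 to 0.15). The class II loading modifiers SLA-DMA and SLA-DMB ran from -0.14 to 0.02 over 4 probes. CD1D, which presents lipids, ran from -0.15 to -0.06 over 3 probes. The factors NLRC5, RFX5, RFXAP and RFXANK ran from -0.29 to 0.05 over 9 probes. ERAP1 stood at -0.23, TAPBP at 0.12 and the non-classical SLA-7 at -0.08, each on 1 probe.

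The 4 probes of SLA-8, listed among the non-classical class I genes (chromosome 7, 23622352 to 23625818), disagreed in direction and none passed. Large White minus Creole was 0.32 in the brightest, A_72_P070231 (adjusted p-value 0.161), 0.28 in A_72_P517672 (0.193), 0.02 in A_72_P734731 (0.980) and -0.24 in A_72_P541846 (0.568). In A_72_P070231 the Creole pigs were at 11.37, 12.20 and 13.13, the Large White pigs at 12.25, 12.44 and 12.66 and the cross pigs at 12.04, 12.43 and 12.63, so Creole reached both below and above the other breeds.

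**Figure D2:**
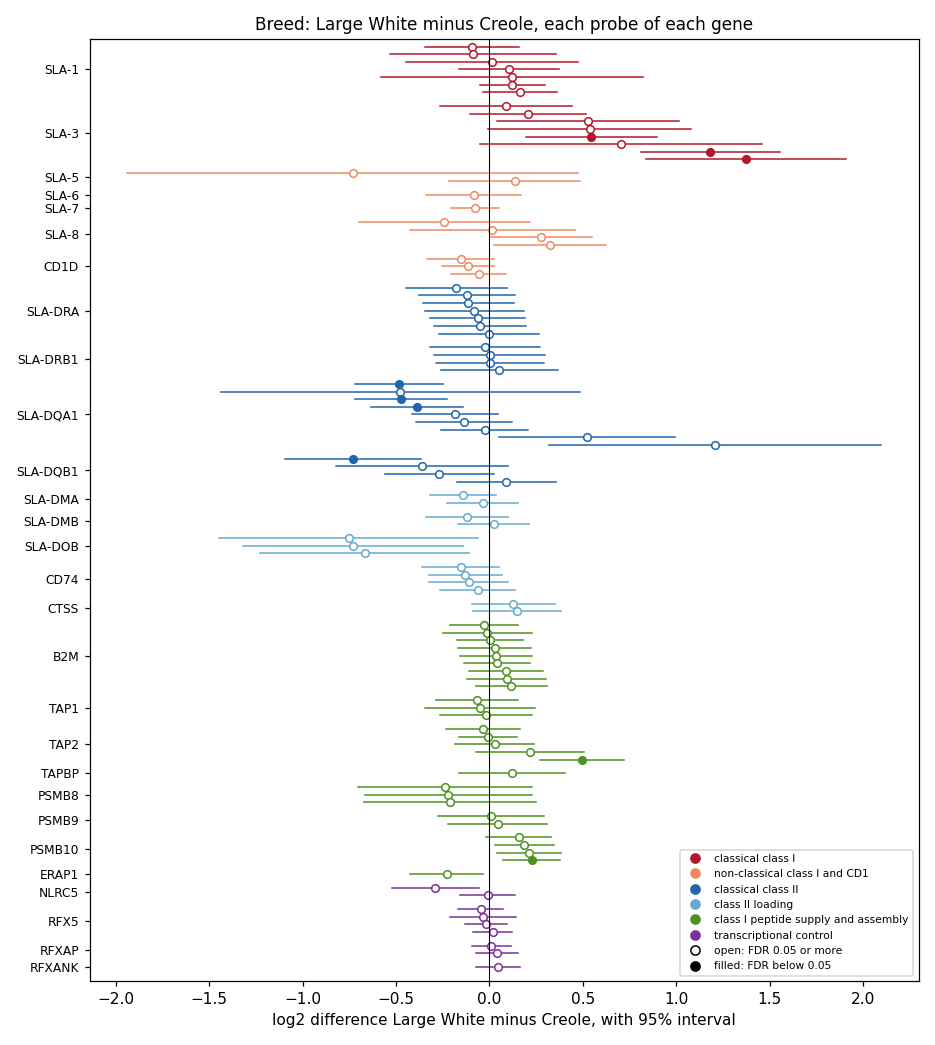
Large White minus Creole on the log2 scale (x axis) for each tested member probe, grouped by gene on the y axis, with 95% intervals as bars and filled points for an FDR under 0.05. The 9 filled points belong to SLA-3, SLA-DQA1, SLA-DQB1, TAP2 and PSMB10, and each of these genes also has open points. In SLA-DQA1, SLA-DQB1 and TAP2 some open points lie on the other side of 0 from the filled ones.

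The breed difference was also looked at separately in TN and HS pigs, which are different animals. In TN, 1 member probe passed (3.48% of all probes did, 2.02% higher), the SLA-3 probe A_72_P625308 at 1.01 (adjusted p-value 0.0230). In HS, 2 were higher and 1 lower (2.8% of all probes passed, 1.37% higher and 1.43% lower), the SLA-3 probes A_72_P625308 at 1.36 (adjusted p-value 0.00279) and A_72_P517623 at 1.66 (adjusted p-value 0.0102) and the SLA-DQA1 probe A_72_P746609 at -0.60 (adjusted p-value 0.0405). Counted over both temperatures, 3 probes passed (5.03% of all probes), and leaving out samples moved this to 1 without slide 4 (3.25%), 6 without slide 5 (3.62%), 5 without Creole TN replicate 1 (4.67%) and 5 without Creole HS replicate 5 (5.15%). The interaction test, given above, did not separate the temperatures. Creole HS replicate 1 was high among Creole HS pigs in both SLA-3 probes, with 13.01 in A_72_P517623 and 14.88 in A_72_P625308, where the next pigs of its group were at 11.36 and 13.57. Without that pig, the test of the 3 breeds passed for 14 member probes in place of 8, and for 9.83% of all probes in place of 10.4%. The arrays lay on 5 slides, each with all breeds and both temperatures. On slide 1, however, the only Creole pig and the only cross pig were HS and both Large White pigs were TN. Within slides, Large White minus Creole was not adjusted for temperature. It was above 0 on 5 of 5 slides for A_72_P517623 (0.13 to 1.73), A_72_P625308 (0.00 to 1.40) and the TAP2 probe (0.02 to 0.75). It was below 0 on 5 of 5 for A_72_P746609 (-1.05 to -0.32), A_72_P631166 (-1.61 to -0.30), A_72_P750437 and A_72_P712598. For the SLA-3 probe A_72_P440386 and the PSMB10 probe A_72_P003971 it was above 0 on 4 of 5. Without slide 2 or without slide 3, 5 member probes passed in the test of the 3 breeds (5.71% and 4.36% of all probes), and without slide 3, 5 passed in Large White minus Creole (5.57% of all probes).

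The cross was then compared with each parental breed. Against Creole, 5 member probes passed, 2 higher and 3 lower (3.88% of all probes passed, 2.22% higher and 1.66% lower), and against Large White 1, which was lower (1.37% of all probes passed, 0.694% lower). The cross was higher than Creole in the SLA-3 probes A_72_P625308 (0.91, adjusted p-value 0.00301) and A_72_P517623 (1.05, adjusted p-value 0.0170), and lower in the SLA-DQA1 probe A_72_P746609 (-0.44, adjusted p-value 0.0216) and the SLA-DQB1 probe A_72_P631166 (-0.81, adjusted p-value 0.00716). In these 4 probes the difference from Large White did not pass, with intervals of -0.65 to 0.10, -0.86 to 0.21, -0.19 to 0.27 and -0.44 to 0.29. These comparisons share the cross pigs, and those of the 3 breeds share all groups.

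SLA-6 encodes a non-classical class I chain (chromosome 7, 23645335 to 23649342) and was the single member in which the cross lay outside both parents by the test. Against the mean of the parental breeds, 1 of 100 member probes passed, and it was lower (0.409% of all probes passed, 0.202% higher and 0.207% lower). The SLA-6 probe A_72_P237292 was at 8.63, 8.92 and 9.23 in Creole pigs, 8.41, 8.85 and 9.25 in Large White pigs and 7.28, 8.18 and 8.90 in cross pigs. Of the 12 cross pigs, 8 lay below every pig of both parental breeds, and 10 lay below every Creole pig. The cross was 1.68-fold lower than the mean of the parents (log2 difference -0.75 ± 0.11, 95% interval -0.97 to -0.53, adjusted p-value 0.000375), 1.73-fold lower than Creole (adjusted p-value 0.000234) and 1.63-fold lower than Large White (adjusted p-value 0.00207), while Large White and Creole differed by -0.09 (95% interval -0.34 to 0.17).

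The lower level was met at both temperatures. Cross TN pigs were at 7.80, 8.43 and 8.90, and cross HS pigs at 7.28, 8.01 and 8.64, whereas the Creole groups did not go below 8.63 and the Large White groups not below 8.41. The difference from the parents was below 0 on 5 of 5 slides (-1.82 to -0.49). On slide 1 it rests on 1 cross pig, which was HS, while the Large White pigs there were TN. It passed under all 53 alternative settings. The second SLA-6 probe was too close to background to be tested, so the result rests on 1 probe. Among the members not past the threshold, the 3 PSMB8 probes were higher in the cross than in the parental mean by 0.57 to 0.61 (lowest adjusted p-value 0.167).

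The lists of immune cell markers had medians below 0 in the cross, and 0 of their probes passed. The median difference from the parental mean was -0.24 for 12 probes of leukocyte markers, -0.26 for 23 of macrophage markers, -0.21 for 19 of T and NK cell markers, -0.14 for 2 of dendritic cell markers and -0.08 for 5 of B cell markers, against -0.00 for all probes. The leukocyte and macrophage probes of lowest adjusted p-value were LAPTM5 (-0.32, 0.0632) and CD163 (-0.42, 0.0878). In the test of the 3 breeds, 9 of the 23 macrophage probes passed, against 10.4% of all probes. The mean level of the macrophage list was 9.63 to 10.15 in cross TN pigs and 9.31 to 9.81 in cross HS pigs, which overlaps the range of the parental breeds given further on. In TN pigs the cross was close to Creole, with group means of 9.83 and 9.87 for the macrophage list and 7.21 and 7.15 for the T and NK cell list. The part of these markers in the lower SLA-6 level was not tested.

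**Figure D3:**
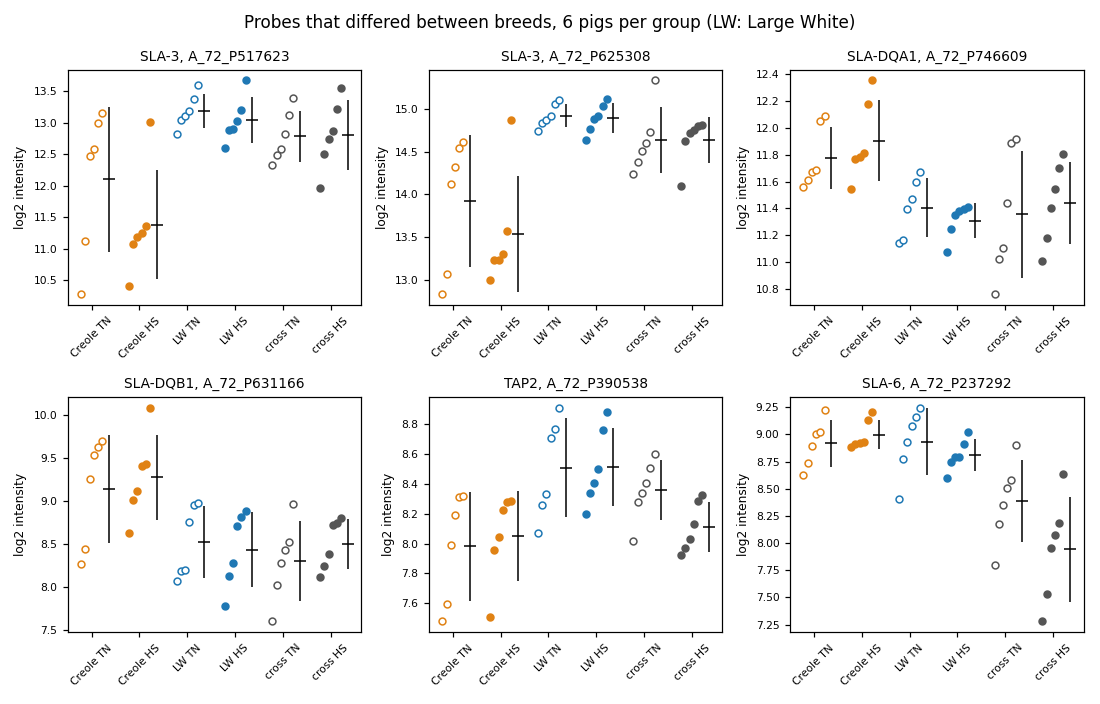
Log2 intensity of each pig (y axis) in the 6 groups of 6 (x axis, LW for Large White) for 6 probes that passed a test between breeds, open points for TN and filled for HS, with mean and SD beside each group. In both SLA-3 probes most Creole pigs lie below all Large White pigs, in SLA-DQA1 and SLA-DQB1 most lie above them, and in SLA-6 the cross pigs reach down to 7.28.

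To set the probes of a gene against each other, the value of a probe minus the mean of the other probes of its gene was tested between the 3 breeds in each pig. Of 95 member probes from 23 genes with at least 2 tested probes, 13 passed (13.7%), from 6 genes, against 6.12% of 18525 probes of all such genes. They were 4 SLA-3 probes, 3 SLA-DQA1 probes, 2 SLA-DQB1 probes, both SLA-DMA probes and 1 each of TAP2 and SLA-8. The 2 SLA-DMA probes mirror each other, since each is set against the other (adjusted p-value 0.0469).

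In SLA-3, the probes A_72_P517623 (adjusted p-value 3.31e-05) and A_72_P625308 (0.000347) rose more from Creole to Large White than the rest, and A_72_P683231 (1.90e-05) and A_72_P649741 (0.000319) less, and the last 2 are, like A_72_P440386, among the probes that list more than 1 RefSeq gene. In SLA-DQB1, A_72_P631166 (3.25e-05) was relatively lower in Large White and A_72_P039061 (0.0134) relatively higher. In SLA-DQA1 the 3 overlapping probes A_72_P746609 (0.00256), A_72_P750437 (0.00504) and A_72_P712598 (0.0249) were relatively lower in Large White. The probes of the 2 printed SLA-DQA1 pairs did not pass (A_72_P743257 0.791, A_72_P763148 0.0641, A_72_P244477 0.637 and A_72_P765361 0.154). The TAP2 probe A_72_P390538 was relatively higher (0.0128), and the SLA-8 probe A_72_P541846 relatively lower (0.00526). Probes of these genes thus differed between the breeds by unequal amounts. Sequence variants under a probe, transcript forms and a probe named for the wrong gene were not told apart. Without slide 3 the count of 13 was 8, against 2.83% of all such probes, and with slide as a fixed or random block it was 18 or 16, against 9.17% or 8.52%.

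Member probes spread widely between pigs of the same group. The median within-group SD was 0.311 for the 100 member probes and 0.177 for all tested probes, and 34% of member probes lay above the 90th percentile of all probes, an SD of 0.352. The widest were the SLA-5 probe A_72_P414498 (SD 1.48), the SLA-DQA1 probes A_72_P743257 (1.25) and A_72_P765361 (1.13), the SLA-3 probe A_72_P515992 (0.90), the SLA-DOB probe A_72_P300459 (0.89) and the SLA-1 probe A_72_P124686 (0.89). These values are descriptions, and littermates within a group are not independent.

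SLA-5 is a class I gene at 22851888 to 22854782 of chromosome 7 with 2 tested probes. The brighter, A_72_P441848, was at 14.75, 15.70 and 16.83 in Creole pigs, 15.43, 15.84 and 16.36 in Large White pigs and 15.40, 15.80 and 16.30 in cross pigs. Its SD was 0.45, its range over the 36 pigs 4.25-fold and Large White minus Creole 0.13 (adjusted p-value 0.703). The dimmer probe A_72_P414498 was at 8.12, 10.29 and 12.60 in Creole pigs, 8.10, 9.09 and 12.19 in Large White pigs and 7.997, 11.07 and 12.81 in cross pigs, a 28.2-fold range over the 36 pigs. In this probe each breed held pigs near 8 and pigs above 12. Large White minus Creole was -0.73 (95% interval -1.94 to 0.48, adjusted p-value 0.499), of opposite sign to the brighter probe. Both probes had an SD above the 90th percentile of all probes.

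In the first SLA-DQA1 pair, A_72_P743257 was at 6.35, 11.08 and 12.04 in Creole pigs, 9.18, 10.05 and 10.68 in Large White pigs and 9.34, 10.31 and 11.71 in cross pigs, a 51.6-fold range. The 2 lowest values, 6.35 and 7.19, belonged to Creole HS replicate 2 and Creole TN replicate 3, and all other pigs were at 9.18 or above. The partner probe A_72_P763148, with 5 differing bases, was at 9.68 and 9.44 in these 2 pigs, which were also its lowest, but its range over all pigs was 5.13-fold. The same 2 pigs were lowest in the SLA-3 probe A_72_P517623, at 10.42 and 10.29. Creole HS replicate 2 was the array with the lowest mean correlation to the others.

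In the second pair, A_72_P765361 was at 5.35, 7.82 and 10.40 in Creole pigs, 8.10, 9.44 and 10.46 in Large White pigs and 7.59, 9.24 and 9.88 in cross pigs, and 7 of 12 Creole pigs lay below the lowest Large White pig. Creole TN replicate 3 was the highest Creole pig in this probe, at 10.40, and Creole HS replicate 1 the lowest, at 5.35. Its partner A_72_P244477, with 3 differing bases, was at 13.43, 14.26 and 14.73 in Creole pigs, 13.57, 14.14 and 14.46 in Large White pigs and 13.54, 14.08 and 14.43 in cross pigs, so it spread much less. The other low pig of the first pair, Creole HS replicate 2, was at 8.78 in A_72_P765361, above the Creole median.

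SLA-DOB, a chain of the molecule that holds back SLA-DM, was high in single pigs. Probe A_72_P300459 was at 7.52, 8.15 and 11.23 in Creole pigs, 6.82, 7.88 and 8.74 in Large White pigs and 6.96, 7.60 and 9.81 in cross pigs. The highest pig, Creole HS replicate 1, was at 11.23, followed by Creole TN replicate 5 at 10.53, and both were also the first and second of the other SLA-DOB probes, at 9.81 and 9.16 in A_72_P634856 and 8.72 and 7.99 in A_72_P440006. The 3 probes were lower in Large White than in Creole by 0.67 to 0.75 without passing (lowest adjusted p-value 0.0995).

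**Figure D4:**
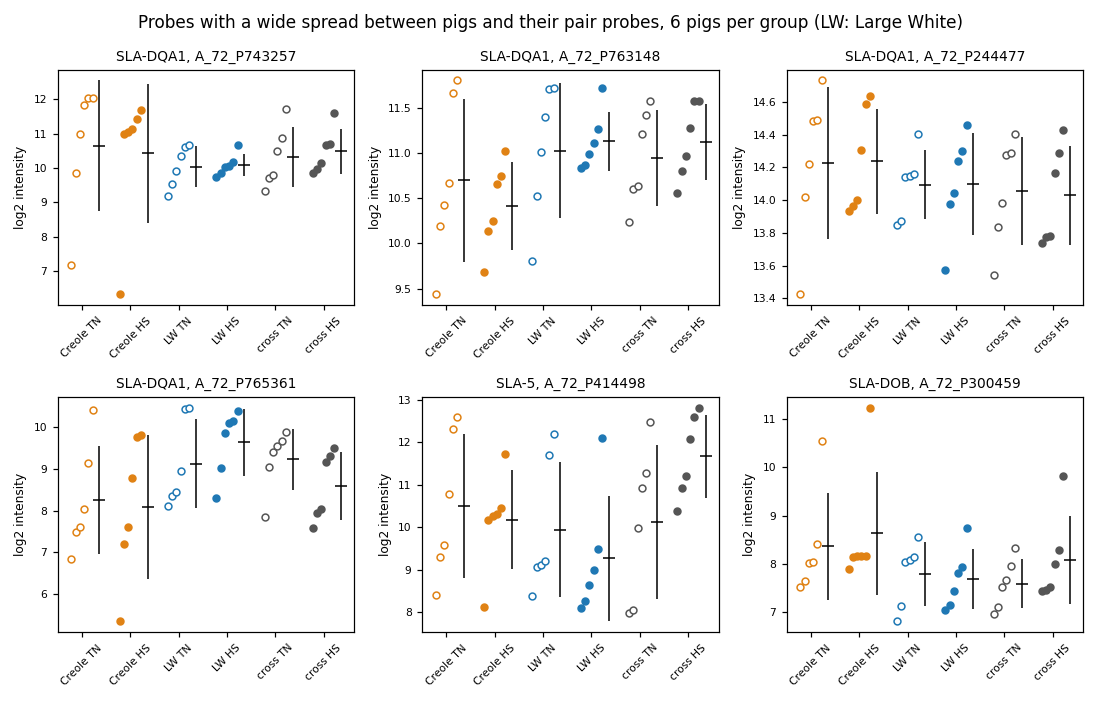
Log2 intensity of each pig (y axis) in the 6 groups (x axis, LW for Large White) for 2 SLA-DQA1 probe pairs, 1 SLA-5 probe and 1 SLA-DOB probe, open points for TN and filled for HS, with mean and SD beside each group. The 2 lowest Creole pigs lie at 6.35 and 7.19 in A_72_P743257 far below the rest, the SLA-5 probe A_72_P414498 spreads from near 8 to above 12 in every breed, and single pigs stand high in SLA-DOB.

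Whether members varied together from pig to pig was tested for 7 of 8 listed pairs of genes, as deviations from the group mean over 36 pigs (the pair of SLA-DRA with CIITA had no probe). TAP1 and PSMB9 are neighbours 143 bases apart on chromosome 7. They correlated at r = 0.918 (Spearman's rho 0.921, permutation p-value 1e-05, the smallest that 100000 permutations can give, adjusted 3.5e-05 for both). Without the 2 pigs farthest from the median of TAP1, r was 0.888, and within the 4 slides of 8 arrays it was 0.898 to 0.990. SLA-DRA and CD74 correlated at r = 0.839 (rho 0.836, permutation p-value 1e-05, adjusted 3.5e-05 for both), with 0.793 without the 2 farthest pigs and 0.625 to 0.900 within slides.

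The other 5 pairs did not pass. SLA-DRA gave r = 0.183 with CD163, a macrophage receptor (rho 0.261, adjusted permutation p-values 0.394 and 0.208). With PTPRC, the pan-leukocyte marker, SLA-DRA gave r = -0.389 (rho -0.361, permutation p-values 0.0304 and 0.0531, adjusted 0.0708 and 0.124). Within the 4 slides of 8 arrays the r of SLA-DRA and PTPRC was -0.308 to 0.0356, and the permutation was not within slides. The factor NLRC5 gave r = 0.0884 with TAP1 (rho 0.0577, adjusted permutation p-values 0.635 and 0.759) and 0.245 with B2M (rho 0.254, adjusted 0.282 and 0.208). B2M and CD74 gave r = 0.356 (rho 0.264, adjusted permutation p-values 0.0989 and 0.208). With slide means taken out as well, the pair of B2M and CD74 did pass, as given in the closing section.

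**Figure D5:**
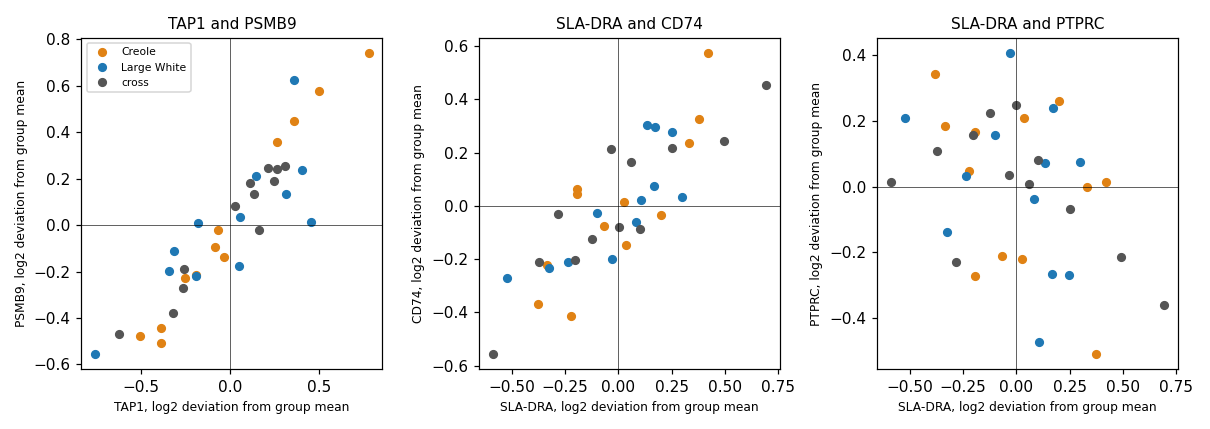
Log2 deviations from the group mean of 36 pigs for TAP1 and PSMB9 (left), SLA-DRA and CD74 (middle) and SLA-DRA and PTPRC (right), coloured by breed. The points of the first 2 panels lie along a rising band (r = 0.918 and 0.839), those of the right panel do not.

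Of the other genes of the pathway (chaperones, cathepsins, constitutive proteasome subunits, interferon-gamma signalling), 27 were tested on 80 probes. In HS minus TN 0 of these probes passed. In Large White minus Creole 1 was higher and 10 were lower (median 0.01, against 0.00 for all probes), beside 5.89% higher and 5.38% lower of all probes. The cathepsin CTSB was lower (-0.40, adjusted p-value 1.82e-06), as was the interferon-gamma receptor chain IFNGR1 (-0.38, adjusted p-value 0.00125), and the kinase JAK2 was higher (0.46, adjusted p-value 0.00224). Of 50 probes of 19 interferon-stimulated genes, 0 passed in HS minus TN and 3 were higher in Large White, among them XAF1 (1.51, adjusted p-value 3.87e-05). That share is close to the 5.89% of all probes that were higher, and is no result about interferon-stimulated genes as a group.

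Markers of other cells were counted in the same comparison, in which 11.3% of all probes passed. In Large White minus Creole, 0 of 12 probes of leukocyte markers passed, 0 of 5 of B cell markers and 0 of 2 of dendritic cell markers. Of 23 macrophage probes 4 were higher and 1 lower, among the higher ones C1QA (0.54, adjusted p-value 0.0131), and of 19 T and NK cell probes 1 was higher, CD3D (0.59, adjusted p-value 0.00581). The mean level of the macrophage list per pig was 9.59 to 10.26 in Creole TN, 9.62 to 9.98 in Creole HS, 9.75 to 10.38 in Large White TN and 9.59 to 10.36 in Large White HS, so the breeds overlapped. All 22 chromaffin cell probes (CHGA, CHGB, PNMT) were higher in Large White, 11 of 28 adrenal cortex probes were lower, and of 28 adipocyte probes 8 were higher and 19 lower, with ADIPOQ at -1.61 (adjusted p-value 6.43e-07). The mean of the chromaffin list was 15.16 to 15.69 in Creole TN and 15.08 to 15.55 in Creole HS, against 15.89 to 16.19 in Large White TN and 15.18 to 15.94 in Large White HS. The part of these differences in the breed differences of SLA-3, SLA-DQA1, SLA-DQB1, TAP2 and PSMB10 was not tested. For the cross against the parental mean, 0 probes of any of these lists passed (0.409% of all probes did), with the medians of the immune lists given above. In HS minus TN the single marker past the threshold was NR5A1, a regulator of the adrenal cortex, at -0.25 (adjusted p-value 0.0254).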

How the data were processed

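Adrenal RNA of 36 pigs was hybridised to 1-colour Agilent arrays, 1 array per pig. Per the file headers, each deposited scanner file gives the intensity of every spot, as extracted with Agilent Feature Extraction 10.10.1.1. The authors also deposited a table of log2 values of 45348 probes, imported with limma and quantile normalised between arrays with preprocessCore, which served here as an alternative.

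Median pixel intensities were quantile normalised between arrays without background subtraction, after control spots and spots flagged as non-uniform or outliers were left out (1 Large White HS value of a PSMB8 probe was lost this way). Replicate spots of each probe were averaged and the means put on the log2 scale. A probe was tested when it stood well above background on 9 or more arrays of the 18 of a temperature, and the number of arrays limits the precision. Groups came from the labels. Linear models with moderated statistics were fitted in limma 3.58.1 (R 4.3.3), breed with temperature or the 6 groups, with Benjamini-Hochberg adjustment over all 45943 probes and an FDR of 0.05. Intervals are 95% intervals from the moderated standard errors, on 32 residual degrees of freedom. Pen, slaughter day and parents, which the authors modelled as random effects, are not in the labels and were left out. Pairs of genes were tested by permuting deviations within groups 100000 times (two-sided).

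By rule, each gene is described through its brightest probe and by all probes where these disagree in sign or call, and other lists by counts and at most 3 genes of lowest p-value. Departing from it, remaining probes of several genes are given by their range, and RFXAP and TAP1 under heat and probes of wide spread were named after their values were seen. The members, lists and pairs were chosen with earlier results of these data known. The fits were tested on simulated data. Alternatives were other backgrounds, scalings, filters, slide blocks, array weights, priors, thresholds, adding the probes named by accession and leaving out each pig or slide. Probe sequences come from the deposited files and positions from RefSeq (Sscrofa11.1).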

Additional observations from a re-analysis of the deposited data

Results flagged for a closer look

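Within groups of 6 pigs, the highest or lowest pig stood apart in 14 of 222 tests over 37 probes, where a gap to the next pig above 0.625 of the range of the group was the limit. Chance alone gives about 1 in 20, or 11.1 of 222, and tests of probes of 1 gene are not independent.

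In 5 of the 14 tests the pig was Creole HS replicate 1, which stood high. It was at 11.23 in the SLA-DOB probe A_72_P300459 (next pig 8.17), and in SLA-3 at 14.40 in A_72_P440386 (next 13.23), 13.01 in A_72_P517623 (next 11.36), 14.88 in A_72_P625308 (next 13.57) and 17.13 in A_72_P649741 (next 16.28). Probe A_72_P300459 of SLA-DOB was also high in Creole TN replicate 5, at 10.53 (next 8.42), and in cross HS replicate 5, at 9.81 (next 8.30). In the SLA-3 probe A_72_P625308, cross HS replicate 3 was low at 14.10 (next 14.62).

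The other 6 tests were of 6 pigs in 6 probes. The TAP2 probe A_72_P510149 was high in cross HS replicate 5, the same pig as in SLA-DOB, at 11.49 (next 10.89), and the RFX5 probe A_72_P682790 was high in Creole TN replicate 1, at 8.25 (next 8.16). Low pigs were Large White HS replicate 1 in the SLA-1 probe CUST_30 at 17.75 (next 18.19), Large White HS replicate 5 in the SLA-DRB1 probe A_72_P545751 at 13.11 (next 13.99), cross HS replicate 4 in the SLA-8 probe A_72_P070231 at 12.04 (next 12.40) and cross HS replicate 1 in the RFXAP probe O9697 at 10.89 (next 11.25).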

How the results depend on the processing

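The pigs were arranged in blocks of littermates, but the labels do not give the litter, so no paired analysis was possible. The labels carry no replicate numbers either, and those used here follow the order of the samples. The counts of member probes past the threshold in HS minus TN, also within breeds, and in the interaction were 0 under all 53 alternatives. Over all probes, HS minus TN called from 33 (without slide 2) to 1076 (FDR of 0.10), and the interaction 0 or 1. The count of member probes for the cross against the parental mean was 1 throughout. An FDR of 0.10 gave 15 member probes in place of 8 between the 3 breeds (15.5% of all probes in place of 10.4%) and 8 in place of 3 in Large White minus Creole within temperatures (8.45% of all probes in place of 5.03%), and median centring gave 5 for the latter (4.51%). Leaving out 1 pig or 1 slide at a time gave 5 to 14 member probes between the 3 breeds, where 4.36% to 10.6% of all probes passed. In Large White minus Creole it gave 5 to 11 (5.57% to 11.5% of all probes), and within temperatures 1 to 6 (2.03% to 5.18%). For probes against the other probes of their gene it gave 8 to 16, where 2.83% to 6.25% of all such probes passed. The extremes within temperatures were 1 without slide 4 and 6 without slide 5, and 5 were called without Creole TN replicate 1 or without Creole HS replicate 5. The authors' table, normexp correction, the filter on all 36 arrays and both slide blocks kept the same 8 probes between breeds and the same 9 in Large White minus Creole. The slide blocks also added calls, to 9 between breeds (13.3% of all probes as a fixed and 13% as a random block) and to 11 (fixed, 13.7%) or 10 (random, 13.2%) in Large White minus Creole. Results of named probes in the test of the 3 breeds have no direction, and none of the others turned direction. The FDR of 0.10 and the adding of probes named by accession use the main fit and could not end a call. Of 18 test results of named probes, 11 passed under all 53 alternatives. The other 7 were SLA-DQA1 A_72_P712598 (not past the threshold in 29 alternatives between the 3 breeds and 10 in Large White minus Creole), SLA-DQA1 A_72_P750437 (2 and 1), TAP2 A_72_P390538 between the 3 breeds (2), SLA-3 A_72_P440386 (13) and PSMB10 A_72_P003971 (20), both in Large White minus Creole. Processed signals scaled to the 75th percentile and no filter on dim probes were among the settings that ended the PSMB10 call. The cause was not tested. With slide means taken out as well, 3 pairs of genes passed in place of 2, B2M and CD74 being the third (r = 0.425, adjusted permutation p-value 0.0371). Probes close to background were not tested, among them the second SLA-6 probe.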
